A study of Homo sapiens with 12 samples.

Results

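The clustered protocadherins are cell surface adhesion proteins encoded by 3 neighbouring gene clusters, alpha, beta and gamma, on chromosome 5. Members were the rows of the count table whose Ensembl identifier maps to a symbol that begins with PCDHA, PCDHB or PCDHG, which gave 47 of 21569 rows. They comprised 15 alpha, 13 beta and 19 gamma rows. One of the beta rows, PCDHB18P, is a transcribed unprocessed pseudogene. A further 13 names with these prefixes had no row and were not analysed here. On hg38, by GENCODE release 29, all 47 members lie on the plus strand of chromosome 5, the alpha cluster from 140786136 to 141012347, the beta cluster from 141094578 to 141249365 and the gamma cluster from 141330571 to 141512981.

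RNA was measured in TC71, an established human line of Ewing sarcoma, a bone and soft tissue tumour. There were 4 groups with 3 libraries in each: a rescue line made from ID2 knockout clone 2, ID2 knockout clone 2 itself, ID2 knockout clone 1, and the wild-type line. ID2 encodes an inhibitor of basic helix-loop-helix transcription factors. The comparisons ask how each knockout clone differed from wild-type, how the rescue line differed from its parent clone and from wild-type, and how clone 2 differed from clone 1. Each knockout group is 1 clone and the rescue line derives from clone 2, so the effect of the knockout and differences between single-cell clones cannot be told apart within a clone. The labels name no separate cultures, so p-values reflect variation among libraries that could be purely technical.

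In each alpha and gamma gene a long variable exon with its own promoter encodes the extracellular and transmembrane part of the protein, and is spliced to constant exons at the 3′ end of the cluster that all members of that cluster share. Beta genes have a single coding exon and no constant exons. Alternate members are chosen promoter by promoter in single neurons, through loss of DNA methylation and binding of CTCF and cohesin, while the C-type members at the 3′ ends of the alpha and gamma clusters are expressed more uniformly. The proteins bind identical isoforms on neighbouring cells and serve self-recognition of neurites in the nervous system.

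Promoter letters were available from RefSeq on GRCh38.p14 for 40 of the 47 members, as 250 bases before and 50 bases after the annotated start. The motif searched was CGCTG, the core of the conserved promoter element of many of these genes, together with its shorter form CGCT, which lies within it. CGCTG was found on the gene's own strand in 34 of the 40 members (85.0%) and in 30.7% of all 35116 promoters of the same length. On either strand the figures were 35 of 40 members (87.5%) and 48.0% of all promoters. CGCT on the gene's strand was present in 39 of the 40 members (97.5%) and in 54.3% of all promoters. The nearest upstream CGCTG began a median of 51 bases before the start in the 33 members whose first listed promoter held one there, and in 29 of these it began between 30 and 100 bases before the start. The stretches below are examples from members that are named in the results and hold an upstream CGCTG. Other members named there do not. PCDHB14, PCDHA4, PCDHA11 and PCDHA12 held no CGCTG on the gene's strand, and the only copy of PCDHB8 lay 3 bases after the start. Capitals mark CGCTG, all are on the plus strand, and the windows are PCDHA2 at chr5:140794772-140794826 with the 5 letters 55 bases before the start, PCDHB9 at chr5:141187065-141187119 with the 5 letters 71 bases before the start, PCDHB10 at chr5:141192290-141192344 with the 5 letters 38 bases before the start, PCDHB12 at chr5:141208634-141208688 with the 5 letters 60 bases before the start, PCDHB15 at chr5:141245305-141245359 with the 5 letters 65 bases before the start, PCDHGA1 at chr5:141330394-141330448 with the 5 letters 95 bases before the start, PCDHGA7 at chr5:141382640-141382694 with the 5 letters 77 bases before the start, PCDHGB7 at chr5:141417598-141417652 with the 5 letters 54 bases before the start, PCDHGC4 at chr5:141484943-141484997 with the 5 letters 62 bases before the start.
PCDHA2: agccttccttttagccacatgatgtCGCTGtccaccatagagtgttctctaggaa
PCDHB9: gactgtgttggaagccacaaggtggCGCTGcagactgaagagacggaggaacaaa
PCDHB10: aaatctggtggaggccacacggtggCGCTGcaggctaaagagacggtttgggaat
PCDHB12: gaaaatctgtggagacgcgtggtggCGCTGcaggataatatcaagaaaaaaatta
PCDHB15: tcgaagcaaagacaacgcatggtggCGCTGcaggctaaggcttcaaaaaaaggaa
PCDHGA1: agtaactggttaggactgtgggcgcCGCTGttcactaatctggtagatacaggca
PCDHGA7: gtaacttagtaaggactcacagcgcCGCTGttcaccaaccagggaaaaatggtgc
PCDHGB7: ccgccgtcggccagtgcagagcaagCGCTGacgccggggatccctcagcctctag
PCDHGC4: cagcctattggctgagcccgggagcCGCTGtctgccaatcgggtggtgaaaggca
The 250 bases upstream of the start are shown whole for PCDHB15, a beta member high in clone 1 alone (chr5:141245145-141245394), and for the most abundant member of all, PCDHGC3 (chr5:141475716-141475965), both on the plus strand with CGCTG in capitals.
PCDHB15: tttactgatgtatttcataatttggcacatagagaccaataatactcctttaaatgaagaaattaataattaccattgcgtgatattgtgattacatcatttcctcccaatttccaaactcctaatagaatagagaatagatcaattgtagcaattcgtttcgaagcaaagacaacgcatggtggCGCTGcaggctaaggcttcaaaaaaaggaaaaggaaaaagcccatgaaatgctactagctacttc
PCDHGC3: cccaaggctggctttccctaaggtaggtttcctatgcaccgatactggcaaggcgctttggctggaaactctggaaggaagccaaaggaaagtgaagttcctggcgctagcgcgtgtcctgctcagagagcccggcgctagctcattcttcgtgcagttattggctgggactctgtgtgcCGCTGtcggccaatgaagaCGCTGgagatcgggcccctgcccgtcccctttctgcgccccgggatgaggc
PCDHB15 held 1 copy of CGCTG and PCDHGC3 held 2 copies. The G and C content of the promoters was 59.0 to 66.0% in the 4 C-type members with an entry, against 32.3 to 51.3% in the other 36 members, counting the first listed start of each. E-box letters, the sites read by the helix-loop-helix factors that ID2 restrains, were searched in 2 forms. CAGCTG occurred in 4 of the 40 members (10.0%) and in 17.9% of all promoters, and CACCTG on either strand in 2 of 40 (5%) and in 20.6% of all promoters. These matches describe letters in a fixed window and say nothing of occupancy. Whether each CGCTG belongs to the conserved element was not tested. The PCDHGC4 match, for one, lay in a promoter of 60.7% G and C.

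The libraries held 19420408 to 29748084 counts each, of which the members took 0.0148 to 0.0196%. ID2 itself averaged 41.5 ± 0.537 CPM (counts scaled per library to a common total, after TMM scaling) in the libraries labelled rescue, 50.9 ± 3.16 in clone 2, 18.1 ± 0.777 in clone 1 and 77.9 ± 0.657 in wild-type (SD, n = 3 each). ID2 RNA was thus lower, not higher, in the libraries labelled rescue than in clone 2, with a log2 fold change of -0.29 ± 0.05 (SE, adjusted p = 3.52e-06, edgeR's quasi-likelihood test with Benjamini-Hochberg adjustment), which goes against that label at the RNA level. All 10 Ewing sarcoma markers examined were present at a mean of 1 CPM or more. Of the 5 blood markers, 2 had rows, and their summed level did not exceed 0.244 CPM in any library. The summed level of 5 epithelial markers was 76.9 to 86.9 CPM in the rescue libraries, 153 to 191 in clone 2, 884 to 951 in clone 1 and 115 to 122 in wild-type, and its part in the members' results was not tested. Neuron markers, 8 of 12 with a row, summed to 365 to 374 CPM in the rescue libraries, 451 to 493 in clone 2, 427 to 454 in clone 1 and 268 to 287 in wild-type. Against wild-type, 2 of the 7 tested were called higher and 3 lower in clone 1 at an adjusted p under 0.05 (median log2 fold change -0.23). In clone 2, 5 were called higher and 1 lower (median 0.71). Summed levels of 6 fibroblast markers were 39.8 to 46.6 CPM in the rescue libraries, 147 to 170 in clone 2, 343 to 369 in clone 1 and 165 to 173 in wild-type. Of the 5 tested, 4 were called higher and 1 lower in clone 1 (median 0.73), and 1 higher and 4 lower in clone 2 (median -0.56). Over all genes 30.8% were called higher and 30.7% lower in clone 1, and 31.5% and 30.6% in clone 2. The neuron and fibroblast sums therefore do not stand for each marker. Of the 5 epithelial markers tested, 5 were called higher and 0 lower in clone 1 (median 4.45). In clone 2, 4 were called higher and 0 lower (median 1.14). In all, 17084 genes passed the filter on low counts and were tested, among them 38 of the 47 members. The members that did not pass were PCDHA9, PCDHA10, PCDHB3, PCDHB18P, PCDHGA2, PCDHGB4, PCDHGA8, PCDHGA9 and PCDHGB6. A member that passed only through the group where it is high had to differ, so counts among the 38 describe them and do not stand for all members. This held for 3 of them, PCDHB6, PCDHB15 and PCDHGA1, which reached the filter's level of 0.399 CPM in the clone 1 libraries and in no other library. Their differences between clone 1 and the other groups are therefore given as levels, with no test. PCDHGA4 reached the level in other groups too, but without clone 1 fell short of the 3 libraries the filter asks for. The same held for PCDHGB7 and PCDHB10 without clone 2. PCDHB10 also fell short without clone 1, PCDHA8 without the rescue line, and PCDHA5 without the rescue line, clone 1 or wild-type. In comparisons with a group that a member needed, any value of it is given with no p-value, and its call is no test.

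TC71 cells expressed 1 member far above the rest. PCDHGC3, a C-type gamma protocadherin that restrains Wnt signalling by binding Axin1 in mouse neurons, stood at 88.8, 85.7 and 95.2 CPM in the rescue libraries, 89.0, 91.2 and 91.9 in clone 2, 81.2, 82.1 and 83.3 in clone 1, and 83.7, 90.4 and 81.7 in wild-type. Per kilobase of exon not shared with another gene on the same strand, its mean level over the 12 libraries was 26.8 CPM, followed by PCDHGA12 at 3.94, PCDHB5 at 3.30 and PCDHGB2 at 2.32 CPM per kilobase. Per kilobase of all annotated exon PCDHGC3 still led, at 16.0 CPM, but PCDHB5 at 3.30 stood above PCDHGA12 at 2.16 and PCDHGB2 at 1.26 CPM per kilobase. PCDHGC3 alone held 54.1 ± 1.64% of the members' summed CPM in the rescue libraries, 52.4 ± 0.840% in clone 2, 42.9 ± 0.0298% in clone 1 and 55.0 ± 1.28% in wild-type (SD, n = 3 each). The clone 1 share lay below every other library. Members with a group mean of 1 CPM or more numbered 18 in the rescue line, 18 in clone 2, 24 in clone 1 and 16 in wild-type. Exon bases shared with another gene on the same strand made up 21.3 to 56.6% of the annotated exons of alpha members and 27.6 to 64.4% of gamma members, but at most 9.43% of beta members, 9 of which shared none. How reads in the shared constant exons were assigned is not given in the sources used here. PCDHGA2 had 1 read in all 3 rescue libraries together, so constant-exon reads were not credited to every gamma member. Levels of near-identical members are uncertain for the same reason.

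**Figure D1:**
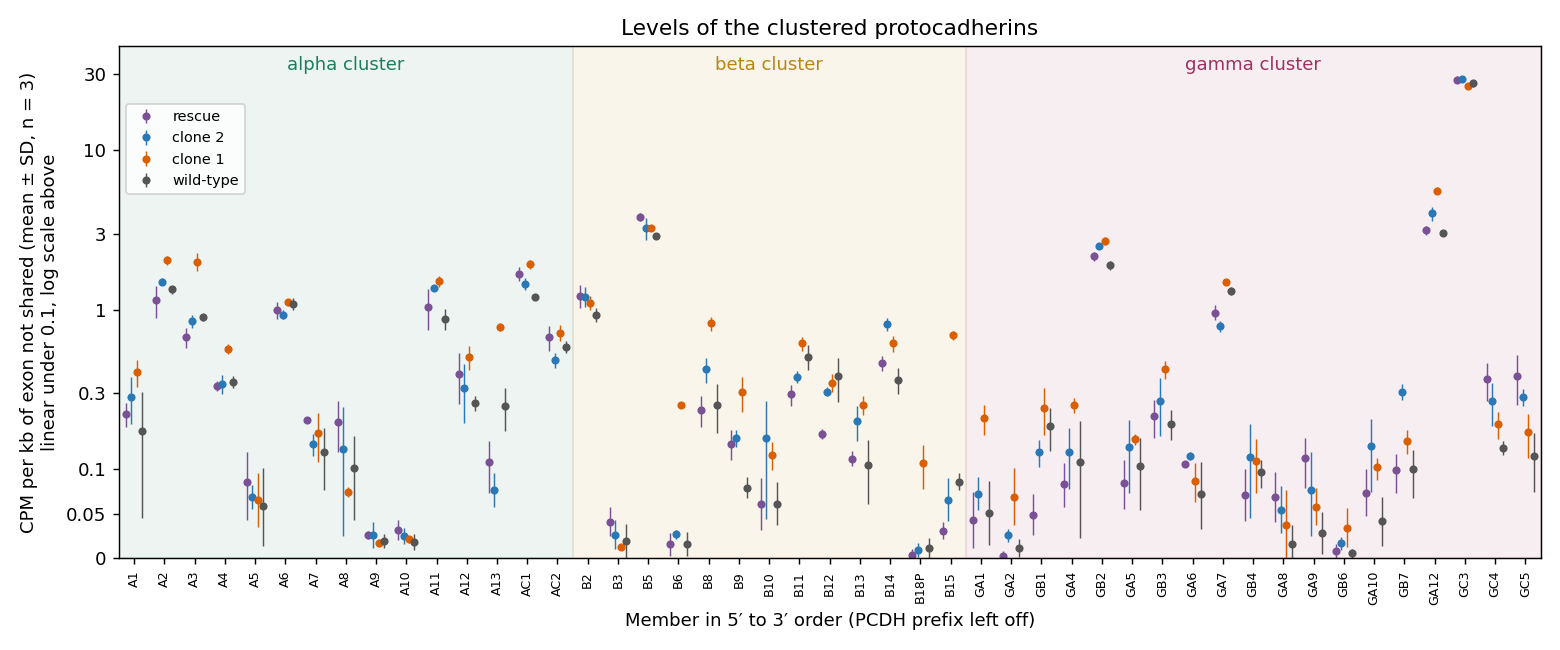
Mean level of each of the 47 members in 5′ to 3′ order, in CPM per kilobase of exon not shared with another gene on the same strand (± SD, n = 3), in the rescue line, clone 2, clone 1 and wild-type. The vertical axis is linear below 0.1 and logarithmic above; PCDHGC3 (mean 26.8 over 12 libraries) stands above all other members in every group.

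Clone 1 was the highest group in the summed alpha and beta clusters, and in the gamma cluster only when PCDHGC3 was left out. The alpha cluster summed to 29.1 ± 3.20 CPM in the rescue line, 29.6 ± 0.551 in clone 2, 44.2 ± 0.772 in clone 1 and 27.4 ± 0.518 in wild-type. For the beta cluster the sums were 24.4 ± 1.48 CPM in the rescue line, 26.3 ± 2.12 in clone 2, 31.3 ± 0.690 in clone 1 and 21.2 ± 0.850 in wild-type. Without PCDHGC3, the gamma cluster summed to 22.6 ± 0.933 CPM in the rescue line, 26.5 ± 0.538 in clone 2, 33.8 ± 1.44 in clone 1 and 21.1 ± 0.386 in wild-type (SD, n = 3 each). The clone 1 libraries lay above every other library in all 3 of these sums. With PCDHGC3 included the gamma sums were 112 ± 4.44, 117 ± 1.68, 116 ± 2.48 and 106 ± 4.83 CPM in the rescue line, clone 2, clone 1 and wild-type, with the clone 2 and clone 1 libraries overlapping.

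**Figure D2:**
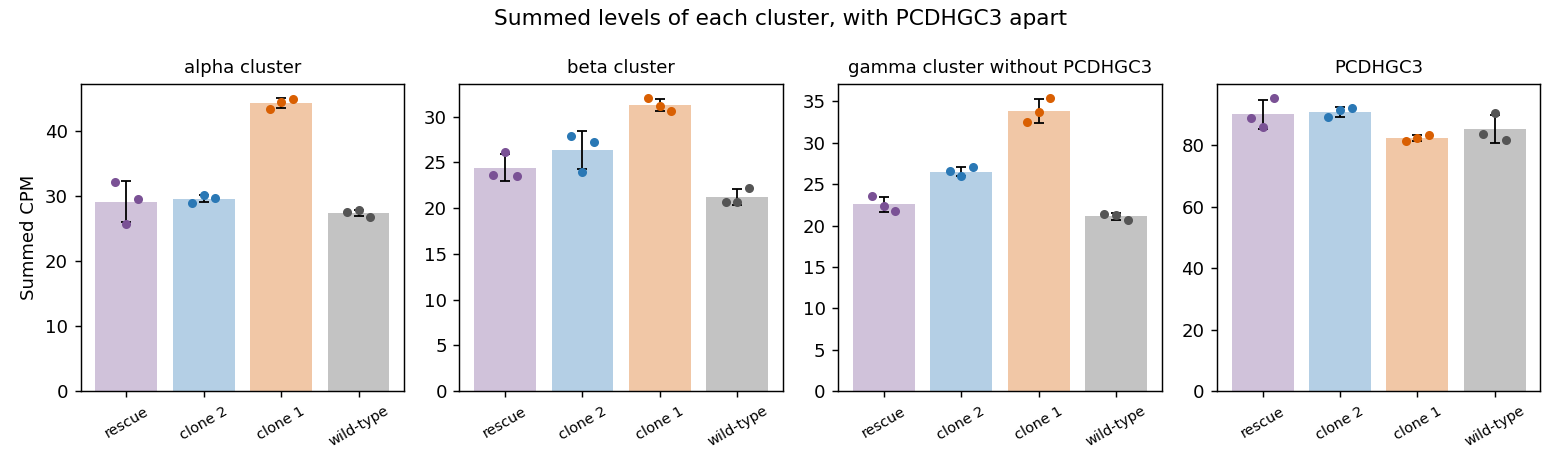
Summed CPM of the alpha cluster, the beta cluster, the gamma cluster without PCDHGC3, and PCDHGC3 alone, in the rescue line, clone 2, clone 1 and wild-type. Bars are means, error bars SD and points the 3 libraries; clone 1 leads in the first 3 panels (44.2, 31.3 and 33.8 CPM) and not for PCDHGC3.

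The genes around the clusters moved as well, and every count of members has to be read beside them. Of 34 tested protein coding genes within 1 Mb of the clusters, clone 1 had 32 called above wild-type and 1 below, with a median log2 fold change of 0.58. In clone 2 against wild-type 27 were called higher and 2 lower, median 0.34. For the rescue line the counts were 6 higher and 10 lower against clone 2, median -0.06, and 20 higher and 1 lower against wild-type, median 0.27. Clone 2 against clone 1 gave 3 higher and 22 lower, median -0.26. Over all genes 30.8% were called higher and 30.7% lower in clone 1, and 31.5% and 30.6% in clone 2, each against wild-type. For the rescue line these shares were 19.3% and 19.9% against clone 2, and 28.5% and 29.9% against wild-type. For clone 2 against clone 1 they were 30.3% and 31.9%. Across the 613 genes of chromosome 5 at 1 CPM or more the medians were -0.11 for clone 1 and 0.02 for clone 2 against wild-type, so the shift was not one of the whole chromosome. Nor was it confined to the clusters' flanks. In windows from 130 to 135, 135 to 140 and 140 to 145 Mb the medians were 0.25, 0.30 and 0.50 in clone 1. In clone 2 they were 0.25, 0.10 and 0.31. Other stretches fell, with clone 1 window medians of -0.68 to -0.40 from 155 to 185 Mb. TAF7, a subunit of the general transcription factor TFIID that lies between the beta and gamma clusters, averaged 93.9 ± 2.93 CPM in the rescue line, 101 ± 5.29 in clone 2, 109 ± 0.942 in clone 1 and 81.4 ± 3.00 in wild-type. DIAPH1, an actin-nucleating formin 2.04 kb beyond the gamma cluster, averaged 437 ± 2.75 CPM in clone 1 and 266 ± 2.53 CPM in wild-type, a log2 fold change of 0.72 ± 0.03 (SE, adjusted p = 8.47e-23). ARAP3, a GTPase-activating protein 140 kb beyond the gamma cluster, averaged 49.0 ± 1.54 CPM in clone 1 and 0.272 ± 0.120 CPM in wild-type. Of the 11 nearest tested genes, TAF7 included, 10 were called higher in clone 1 and the other, ZMAT2, had a log2 fold change of 0.07. Gene copy number was not measured here, and the part of the regional shift in the members' results was not tested.

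**Figure D3:**
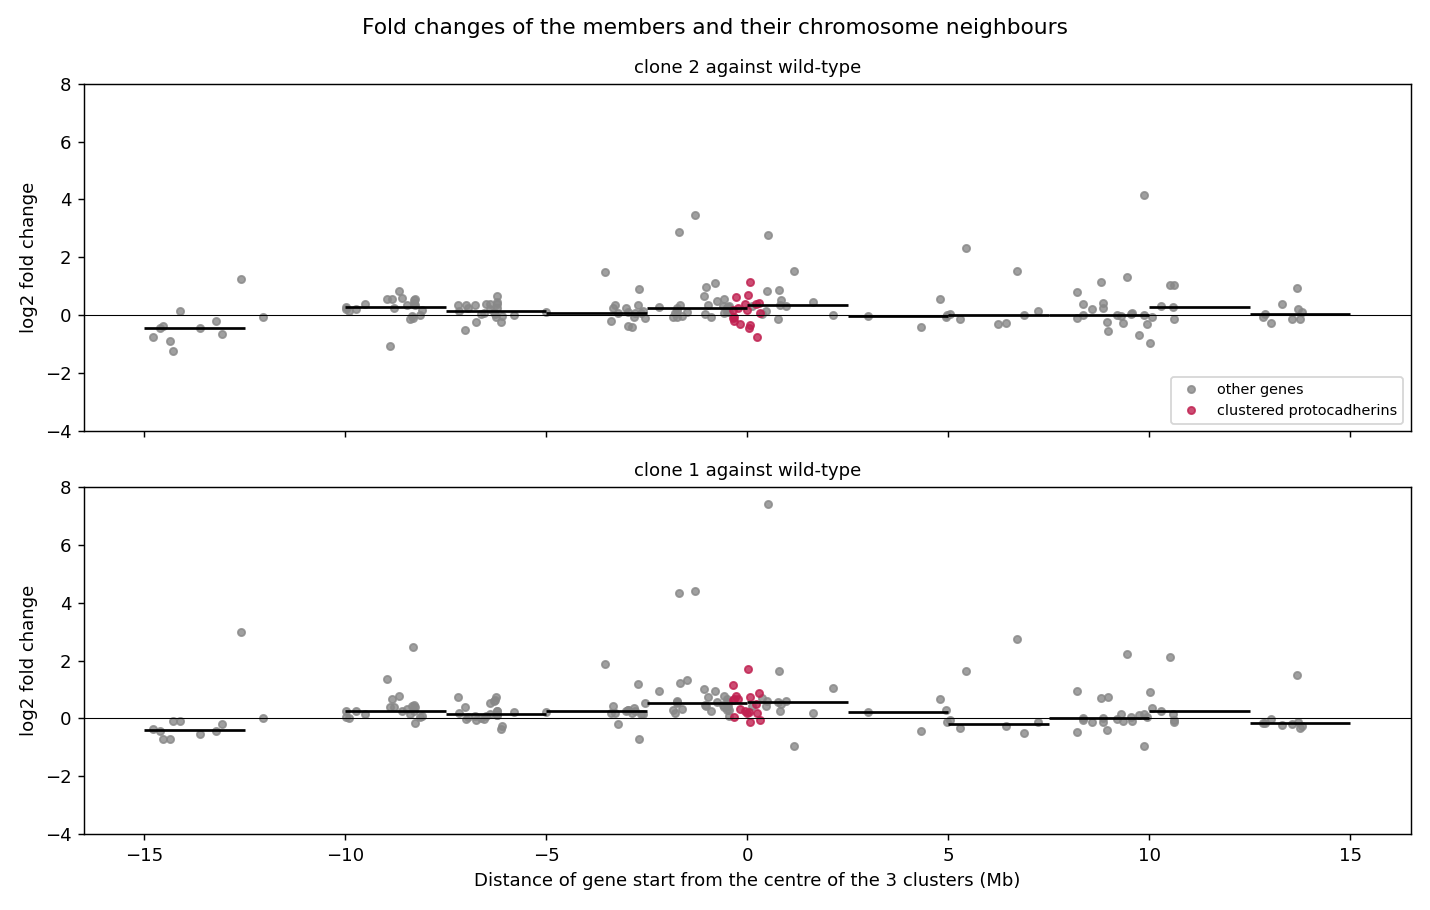
Log2 fold change of genes at 1 CPM or more within 15 Mb of the centre of the 3 clusters, for clone 2 and clone 1 against wild-type: 17 clustered protocadherins (red) and 161 other genes (grey). In clone 1, DPYSL3 (-5.13) lies below the plotted range and is not drawn. Black lines are medians of other genes in 2.5 Mb bins with at least 3 genes; in clone 1 the bins on either side of the centre stand at 0.54 (28 genes) and 0.57 (13 genes).

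In clone 1 against wild-type, 20 of the 38 tested members were called higher and 0 called lower, at an adjusted p under 0.05. Over all 17084 genes 30.8% were called higher and 30.7% lower. The members' median log2 fold change was 0.65, against 0.01 over all tested genes, and 12 members were called at 2-fold or more, a class that held 9.61% of all genes. Without the 3 members that passed the filter only through clone 1, 17 of 35 were called higher, 9 of them at 2-fold or more, and the median was 0.61. The 35 still held PCDHGA4, PCDHB10 and PCDHA5, which needed the clone 1 libraries to pass. Of these only PCDHGA4 was called. None was called at 2-fold or more lower, where 4.06% of all genes were. Of the 38, 8 of 13 alpha members (median 0.68), 6 of 11 beta members (median 1.01) and 6 of 14 gamma members (median 0.56) were called higher. The beta count includes PCDHB6 and PCDHB15, which passed the filter only through clone 1. Without these, 4 of 9 beta members were called higher. The 9 include PCDHB10, which needed clone 1 to pass and was not called. Its log2 fold change of 1.01 equals the beta median above. The gamma and gamma A counts include PCDHGA1 and PCDHGA4, which likewise needed clone 1 to pass. Of the 5 C-type members 1 was called, PCDHAC1, against 7 of 11 alternate alpha, 4 of 7 gamma A and 2 of 4 gamma B members. No test of these shares against each other was made.

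Beta members are single-exon adhesion proteins whose reads can be counted without the constant exons. PCDHB15 had 2.70, 2.38 and 2.51 CPM in clone 1 and 0.336, 0.332 and 0.276 CPM in wild-type. Its clone 1 libraries held 182 reads in all and its wild-type libraries 23. PCDHB6 had 0.800, 0.818 and 0.864 CPM in clone 1 and 0.0839, 0 and 0.0689 CPM in wild-type, where it is near the limit of detection. It stood at 60 reads in clone 1 and 4 in wild-type in all. Among members that passed the filter through more than 1 group, the largest rises were also in beta members. PCDHB9 averaged 1.24 ± 0.305 CPM in clone 1 and 0.324 ± 0.0481 in wild-type (log2 fold change 1.95 ± 0.31 (SE), adjusted p = 1.05e-06, edgeR), and PCDHB8, beside it, 2.08 ± 0.207 and 0.642 ± 0.217 CPM in clone 1 and wild-type (1.70 ± 0.25, adjusted p = 1.12e-07). PCDHB13 and PCDHB14 rose by 1.19 and 0.74 on the log2 scale. The most abundant beta member, PCDHB5, was not called, at 11.2, 11.5 and 10.6 CPM in clone 1 and 9.86, 9.76 and 9.89 CPM in wild-type. PCDHB2, PCDHB10, PCDHB11 and PCDHB12 were not called either.

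PCDHB18P, the pseudogene just upstream of PCDHB15, was not tested and had 25 reads in clone 1 and 3 reads in wild-type, a depth-adjusted ratio of 8.51 with an exact 95% interval of 2.60 to 44.0 that covers counting error only. Its neighbours on either side were PCDHB14 and PCDHB15. PCDHGA1, the next member after PCDHB15 and the first gene of the gamma cluster, had 0.650, 0.996 and 0.905 CPM in clone 1 and 0.336, 0.0474 and 0.241 CPM in wild-type. It held 63 reads in clone 1 and 16 in wild-type.

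In the alpha cluster, clone 1 was higher for the first 4 members and for the last alternate members, with PCDHA5 to PCDHA8 between them not called. PCDHA3 led by level, at 7.55, 7.43 and 9.30 CPM in clone 1 and 3.82, 3.46 and 3.62 CPM in wild-type. Every clone 1 library was above every wild-type library (log2 fold change 1.15 ± 0.12, adjusted p = 6.70e-11). PCDHA13, the last alternate alpha member, had 1.85, 2.06 and 1.93 CPM in clone 1 and 0.461, 0.569 and 0.827 CPM in wild-type, a log2 fold change of 1.62 ± 0.25 (adjusted p = 4.29e-07). PCDHA1, PCDHA2, PCDHA4, PCDHA11 and PCDHA12 rose by 0.62 to 1.20 on the log2 scale. PCDHA6 was not called, at 3.63 ± 0.193 CPM in clone 1 and 3.56 ± 0.323 CPM in wild-type. Of the C-type pair, PCDHAC1 averaged 7.85 ± 0.533 CPM in clone 1 and 4.92 ± 0.140 CPM in wild-type (0.68 ± 0.11, adjusted p = 5.30e-07). PCDHAC2, which spaces serotonergic axons in the mouse, averaged 2.48 ± 0.282 and 2.03 ± 0.178 CPM in clone 1 and wild-type and was not called.

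In the gamma cluster the most precise change was in PCDHGA12, a gene known for promoter methylation in several carcinomas. It had 14.3, 14.2 and 15.5 CPM in clone 1 and 8.14, 8.06 and 7.62 CPM in wild-type, a gap well outside the spread of the libraries (log2 fold change 0.89 ± 0.08, adjusted p = 4.13e-12). PCDHGB2 averaged 7.01 ± 0.436 CPM in clone 1 and 4.92 ± 0.349 CPM in wild-type, a rise of 0.50 ± 0.11. PCDHGA4, PCDHGB3 and PCDHGA10 also rose, by 1.13 to 1.29 on the log2 scale. PCDHGA4 needed the clone 1 libraries to pass the filter, so its rise is no test. The PCDHGA10 call was lost without wild-type replicate 1 or clone 1 replicate 2. PCDHGC3 was not called, with a log2 fold change of -0.05, nor were the other gamma C-type members PCDHGC4 and PCDHGC5.

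In clone 2 against wild-type, 15 of the 38 tested members were higher and 3 were lower, where 31.5% and 30.6% of all genes were called in these directions. The members' median log2 fold change was 0.38, against 0.01 over all genes, and 5 were called at 2-fold or more higher, where 10.4% of all genes were. The 5 include PCDHGB7 and PCDHB10, which passed the filter only with the clone 2 libraries. PCDHA13 alone was called at 2-fold or more lower, a class of 2.87% of all genes. The calls lay mostly in the beta cluster (6 higher and 1 lower of 11) and the gamma cluster (7 higher and 1 lower of 14), with 2 higher and 1 lower of 13 in the alpha cluster. Without wild-type replicate 3 the count of higher members was 8.

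PCDHGB7 had 0.768, 0.961 and 0.833 CPM in clone 2 and 0.252, 0.379 and 0.207 CPM in wild-type. It reached the filter's level in 3 clone 2 and 2 clone 1 libraries and in no wild-type library. Without clone 2 it would not have passed, so the difference is no test. The log2 fold change was 1.62 ± 0.36 (SE). PCDHGA10, its upstream neighbour, had 0.698, 0.304 and 0.880 CPM in clone 2 and 0.0419, 0.237 and 0.276 CPM in wild-type, which is a wide spread on both sides (1.73 ± 0.46, adjusted p = 1.20e-03). PCDHB14 had 4.19, 3.49 and 3.75 CPM in clone 2 and 1.89, 1.33 and 1.86 CPM in wild-type, and was the most firmly called member of this comparison (1.16 ± 0.17, adjusted p = 8.98e-08). PCDHB10 was called at 0.516 ± 0.371 CPM in clone 2 and 0.203 ± 0.0802 CPM in wild-type, but the groups overlapped and its log2 fold change of 1.32 was 0.67 and no longer called without clone 2 replicate 3. PCDHB10 too passed the filter only with the clone 2 libraries. Among C-type members, PCDHGC5 had 0.908, 0.708 and 0.787 CPM in clone 2 and 0.210, 0.474 and 0.345 CPM in wild-type (1.25 ± 0.37, adjusted p = 3.40e-03). PCDHGC4, required for neuronal survival in the mouse, averaged 0.746 ± 0.227 CPM in clone 2 and 0.383 ± 0.0411 CPM in wild-type (0.96 ± 0.35, adjusted p = 0.0167), a call lost without wild-type replicate 3, clone 2 replicate 1 or clone 2 replicate 2. PCDHGA12 averaged 10.6 ± 1.06 CPM in clone 2 and 7.94 ± 0.279 CPM in wild-type, a rise of 0.42 ± 0.09. PCDHGA6, called at 0.82 ± 0.36, lost its call in 11 of the 12 fits that left out 1 library, and PCDHAC1, at 0.27 ± 0.11, in 8 of them.

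The 3 members called lower in clone 2 were PCDHA13, PCDHGA7 and PCDHB11. PCDHA13 had 0.140, 0.202 and 0.231 CPM in clone 2 and 0.461, 0.569 and 0.827 CPM in wild-type, so all clone 2 libraries lay below wild-type (-1.74 ± 0.42, adjusted p = 4.00e-04). It was the only member called in opposite directions in the 2 clones. PCDHGA7 averaged 2.57 ± 0.188 CPM in clone 2 and 4.31 ± 0.242 CPM in wild-type (-0.74 ± 0.14, adjusted p = 1.32e-05). PCDHB11 was at the edge of the threshold (-0.43 ± 0.19, adjusted p = 0.0499), overlapped between groups and lost its call in 4 of the 12 fits that left out 1 library.

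**Figure D4:**
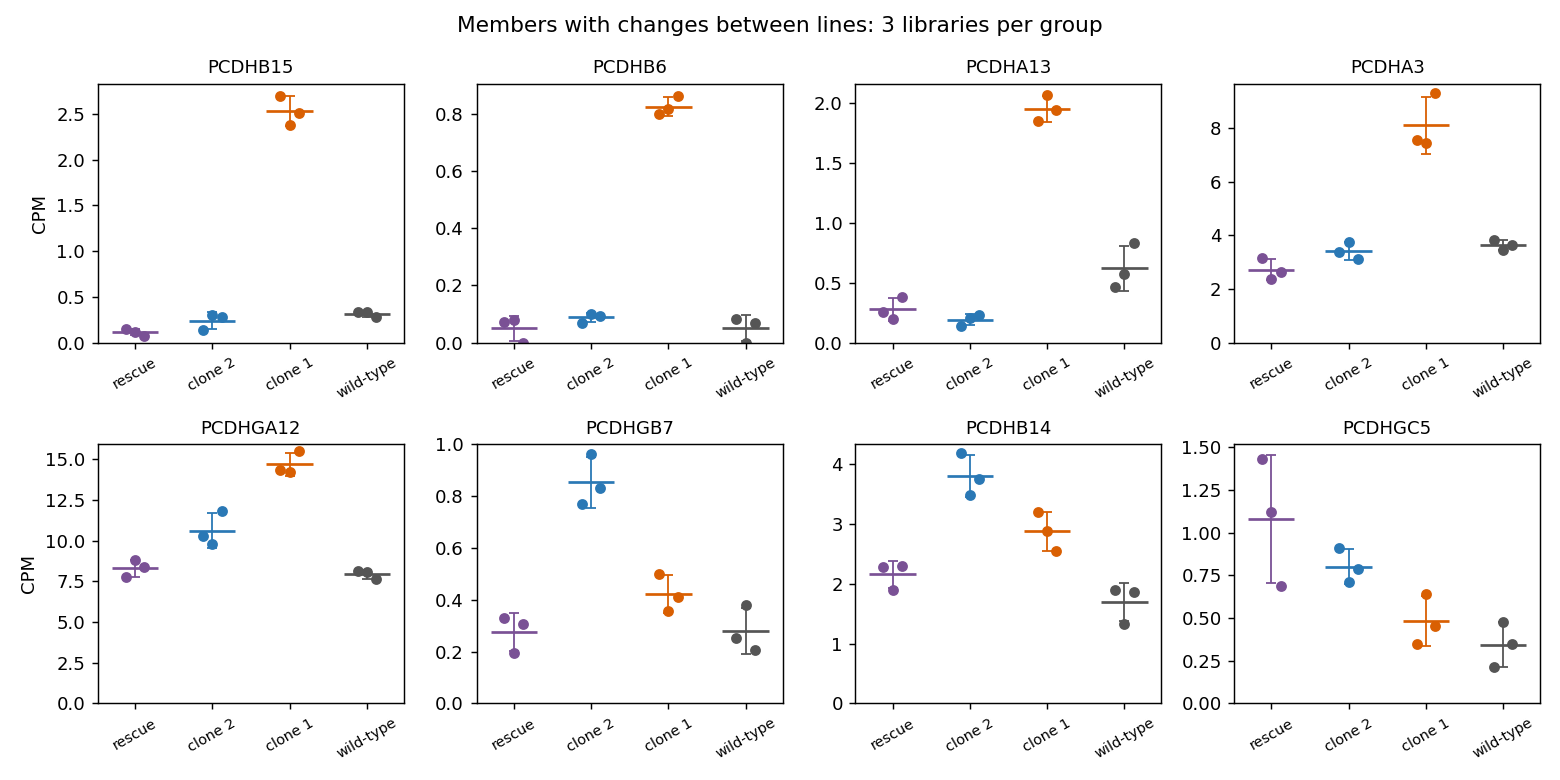
CPM of 8 members in each library of the rescue line, clone 2, clone 1 and wild-type, with the mean and SD of 3 libraries. PCDHB15, PCDHB6, PCDHA13 and PCDHA3 are highest in clone 1, PCDHGB7 and PCDHB14 in clone 2, and PCDHGC5 in the rescue line.

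Set against each other directly, clone 2 was lower than clone 1 for 17 of the 38 tested members and higher for 3, where 31.9% of all genes were called lower and 30.3% higher. The members' median log2 fold change was -0.40, against 0.00 over all genes. At 2-fold or more, 5 were lower and 1 higher, against 6.64% and 7.29% of all genes. Without the 3 members that passed the filter only through clone 1, 14 of 35 were lower and 3 higher, with 2 lower at 2-fold or more and a median of -0.25. The 35 still held PCDHGA4 and PCDHA5, which needed clone 1 to pass, PCDHGB7, which needed clone 2, and PCDHB10, which needed both. The lower members of the 38 comprised 6 of 13 in the alpha cluster, 5 of 11 in the beta cluster and 6 of 14 in the gamma cluster. The beta count includes PCDHB6 and PCDHB15, without which 3 of 9 were lower, and the gamma count includes PCDHGA1. PCDHB15 had 0.140, 0.304 and 0.278 CPM in clone 2 and 2.70, 2.38 and 2.51 CPM in clone 1. PCDHB6 averaged 0.0879 ± 0.0162 and 0.827 ± 0.0333 CPM in clone 2 and clone 1. Both passed the filter only through clone 1, which fixed the direction. PCDHA13 had the largest difference of the other members, at 0.191 ± 0.0469 CPM in clone 2 and 1.95 ± 0.107 CPM in clone 1 (-3.36 ± 0.33, adjusted p = 1.09e-11). For PCDHA13 the clone 2 libraries were all below the clone 1 libraries. The 3 members higher in clone 2 were PCDHGB7 (1.02 ± 0.33), PCDHB14 (0.43 ± 0.15, adjusted p = 0.0135) and PCDHGC3. PCDHGB7 passed the filter only with the clone 2 libraries, so its difference is no test. PCDHGC3 averaged 90.7 ± 1.49 CPM in clone 2 and 82.2 ± 1.04 CPM in clone 1 (0.14 ± 0.04, adjusted p = 3.37e-03). The PCDHB14 call was lost without clone 1 replicate 3 or clone 2 replicate 1.

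In the libraries labelled rescue against their parent clone 2, 2 of the 38 tested members were higher and 10 lower, where 19.3% of all genes were called higher and 19.9% lower. The members' median log2 fold change was -0.30, against 0.00 over all genes. At 2-fold or more, 3 were lower (4.47% of all genes) and 0 higher (0.48% of all genes). The 3 include PCDHGB7 and PCDHB10, which passed the filter only with the clone 2 libraries. The lower members comprised 5 of 11 beta, 3 of 14 gamma and 2 of 13 alpha members. PCDHGB7 had 0.330, 0.194 and 0.306 CPM in the rescue line and 0.768, 0.961 and 0.833 CPM in clone 2 (-1.59 ± 0.35, given with no test). PCDHB14 had 2.28, 1.90 and 2.29 CPM in the rescue line and 4.19, 3.49 and 3.75 CPM in clone 2, with no overlap (-0.83 ± 0.16, adjusted p = 3.49e-05). PCDHB12 averaged 0.644 ± 0.0463 CPM in the rescue line and 1.19 ± 0.0770 CPM in clone 2 (-0.88 ± 0.27, adjusted p = 9.19e-03). PCDHGA12 averaged 8.30 ± 0.528 and 10.6 ± 1.06 CPM in the rescue line and clone 2, a fall of 0.35 ± 0.09 on the log2 scale (adjusted p = 1.16e-03). The others were PCDHGB1, PCDHB10, PCDHB8, PCDHB13, PCDHA11 and PCDHA2. The higher members were PCDHAC2, at 2.32 ± 0.401 CPM in the rescue line and 1.67 ± 0.182 CPM in clone 2 (0.49 ± 0.18, adjusted p = 0.0300), and PCDHB5, at 13.0 ± 0.778 and 11.1 ± 1.76 CPM (0.21 ± 0.09, adjusted p = 0.0439). Several of these calls rested on single libraries. Without clone 2 replicate 3 the count of lower members was 5, without rescue replicate 1 or 3 it was 6, and the PCDHGB1 and PCDHA11 calls were each lost in 5 of 12 such fits, those of PCDHA2 and PCDHB5 in 4, and those of PCDHAC2 and PCDHB10 in 3.

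Against wild-type, the libraries labelled rescue had 6 members higher and 7 lower, where 28.5% and 29.9% of all genes were called. Their median log2 fold change was 0.07, against 0.00 over all genes. At 2-fold or more, 2 were higher and 4 lower, against 6.78% and 3.97% of all genes. The 2 largest rises were in neighbouring C-type gamma members at the 3′ end. PCDHGC5 had 1.43, 1.12 and 0.688 CPM in the rescue line and 0.210, 0.474 and 0.345 CPM in wild-type (1.67 ± 0.34, adjusted p = 5.51e-05). PCDHGC4 had 1.32, 0.775 and 0.994 CPM in the rescue line and 0.377, 0.426 and 0.345 CPM in wild-type (1.44 ± 0.32, adjusted p = 1.86e-04). Neither overlapped between the groups. PCDHAC1 averaged 6.86 ± 0.691 CPM in the rescue line and 4.92 ± 0.140 CPM in wild-type (0.48 ± 0.11, adjusted p = 1.84e-04), so 3 of the 5 C-type members were higher. PCDHB5, PCDHB2 and PCDHB9 also rose, by 0.40 to 0.86 on the log2 scale. PCDHGB1 fell most, to 0.127 ± 0.0604 CPM in the rescue line, against 0.483 ± 0.142 CPM in wild-type (-1.87 ± 0.48, adjusted p = 1.04e-03). PCDHB15 averaged 0.113 ± 0.0353 CPM in the rescue line and 0.314 ± 0.0335 CPM in wild-type (-1.41 ± 0.51, adjusted p = 0.0169), a call lost without rescue replicate 3. PCDHB12 (-1.21 ± 0.26, adjusted p = 9.14e-05) and PCDHA13 (-1.18 ± 0.37, adjusted p = 5.96e-03) were lower too, the second not called without wild-type replicate 3. PCDHB11, PCDHGA7 and PCDHA3 completed the lower members, at -0.81 to -0.42. The comparisons with wild-type share the wild-type libraries, and those with clone 2 share the clone 2 libraries, so they are not independent of each other.

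**Figure D5:**
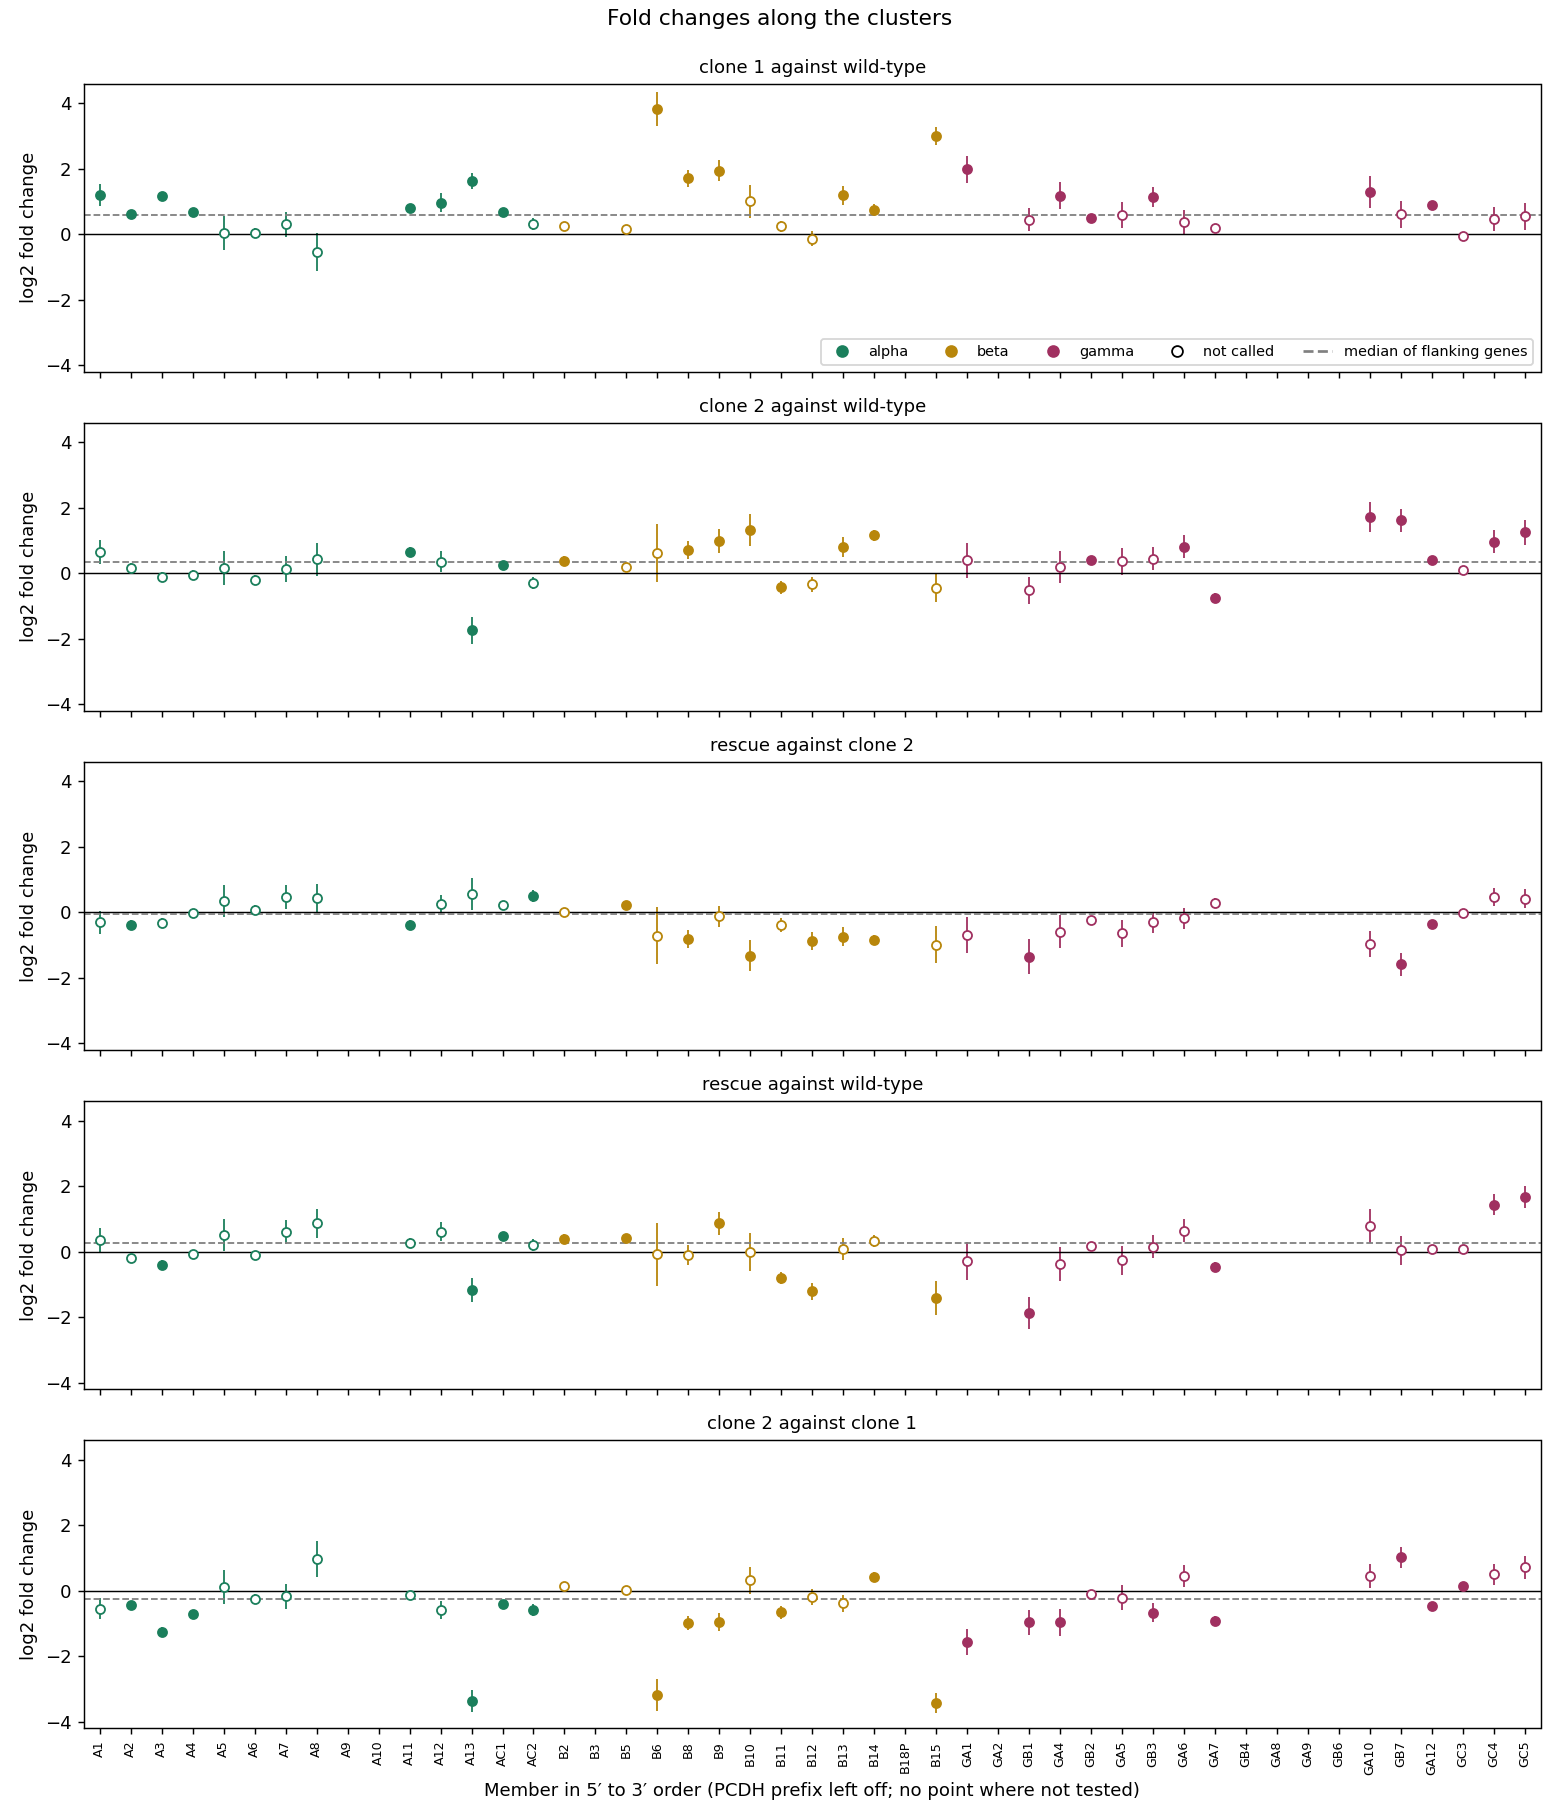
Log2 fold change (± SE) of the 38 tested members in 5′ to 3′ order, 1 panel per comparison. Filled points were called at an adjusted p under 0.05, open points were not. PCDHB6, PCDHB15 and PCDHGA1 passed the filter only through clone 1, so their points in comparisons with clone 1 are no test. The same holds for PCDHGA4 with clone 1, for PCDHGB7 with clone 2 and for PCDHB10 with either clone. It also holds for PCDHA8 with the rescue line, and for PCDHA5 with the rescue line, clone 1 or wild-type. The dashed line is the median of the 34 flanking genes (0.58, 0.34, -0.06, 0.27 and -0.26 from the top).

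When the libraries were rescaled so that the median of the 34 flanking genes was equal in all groups, an alternative added after seeing the data, the one-sided picture in clone 1 ended. Clone 1 against wild-type then had 9 members higher and 6 lower, with a median log2 fold change of 0.08, and clone 2 against wild-type had 4 higher and 9 lower, median 0.04. The members that stayed higher in clone 1 were PCDHA3 (0.58), PCDHA13 (1.05), PCDHB6 (3.27), PCDHB8 (1.13), PCDHB9 (1.38), PCDHB13 (0.62), PCDHB15 (2.43), PCDHGA1 (1.41) and PCDHGA12 (0.32), of which PCDHB6, PCDHB15 and PCDHGA1 had passed the filter only through clone 1. Relative to the neighbourhood, the members below wild-type in clone 1 were PCDHA6 (-0.53), PCDHB2 (-0.33), PCDHB5 (-0.40), PCDHB12 (-0.71), PCDHGA7 (-0.40) and PCDHGC3 (-0.62). In clone 2 the members still higher were PCDHB14 (0.83), PCDHGA10 (1.40), PCDHGB7 (1.29) and PCDHGC5 (0.92), of which PCDHGB7 had passed the filter only with the clone 2 libraries. PCDHA13 remained higher in clone 1 and lower in clone 2, at -2.08 in the second. Clone 2 against clone 1 had 8 higher and 11 lower under this scaling, the rescue line against clone 2 had 4 higher and 7 lower, and the rescue line against wild-type had 2 higher, PCDHGC4 and PCDHGC5, and 12 lower.

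Genes that act on the clusters were examined as a list of 29 regulators of chromatin architecture and DNA methylation, 28 of which were tested. In clone 1 against wild-type 6 were higher and 17 lower (median -0.17), where 30.8% of all genes were called higher and 30.7% lower. In clone 2 against wild-type 4 were higher and 16 lower (median -0.11), where 31.5% and 30.6% of all genes were called. The rescue line had 15 higher and 2 lower than clone 2, median 0.09, where 19.3% and 19.9% of all genes were called, and 4 higher and 15 lower than wild-type, where 28.5% and 29.9% were called. CTCF, the architectural protein that binds the promoter element, averaged 118 ± 0.860 CPM in the rescue line, 107 ± 4.02 in clone 2, 110 ± 2.29 in clone 1 and 129 ± 2.34 in wild-type, and was called lower in both clones. SMCHD1, a chromatin protein that silences these clusters in the mouse, averaged 138 ± 4.90 CPM in the rescue line, 129 ± 5.22 in clone 2, 140 ± 4.23 in clone 1 and 176 ± 2.81 in wild-type, also called lower in both. TET1, which removes DNA methylation, averaged 15.9 ± 1.92 CPM in clone 2 and 34.8 ± 1.30 CPM in wild-type (-1.14 ± 0.07, adjusted p = 3.19e-17). DNMT3B, a methyltransferase that marks alternate promoters in the mouse, averaged 10.5 ± 2.33 CPM in clone 2 and 20.9 ± 2.72 CPM in wild-type (0.501 times the wild-type level, adjusted p = 2.83e-12). In clone 1 the largest changes of the list were in CDCA7 (-0.67 ± 0.05) and the cohesin subunit RAD21 (-0.61 ± 0.03).

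Proteins that bind or process clustered protocadherins formed a list of 21 genes, 18 of them tested. Clone 1 had 9 higher and 7 lower than wild-type, beside 30.8% and 30.7% of all genes, and clone 2 had 4 higher and 10 lower, beside 31.5% and 30.6% of all genes. PTK2B, a focal adhesion family kinase inhibited by these receptors in mouse neurons, averaged 50.7 ± 1.96 CPM in clone 1 and 9.88 ± 0.597 CPM in wild-type (2.36 ± 0.08, adjusted p = 3.08e-27). CYFIP2, a subunit of the WAVE complex that regulates actin, averaged 6.45 ± 0.369 CPM in clone 1 and 27.0 ± 0.480 CPM in wild-type (-2.06 ± 0.07, adjusted p = 5.28e-26). RET, a receptor tyrosine kinase that associates with protocadherins in the mouse, had 1 read in clone 1 and 276 reads in wild-type, a depth-adjusted ratio of 0.00370 with an exact 95% interval of 9.33e-05 to 0.0208. In clone 2, ADAM10, the protease that sheds the extracellular part, averaged 68.3 ± 2.24 CPM and in wild-type 104 ± 0.873 CPM (-0.61 ± 0.04, adjusted p = 3.05e-17). The list's median log2 fold change was 0.04 in clone 1 and -0.11 in clone 2. Against clone 2, the rescue line had 4 higher and 4 lower, beside 19.3% and 19.9% of all genes.

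Among 12 protocadherins outside the clusters, 11 were tested, with 5 higher and 4 lower in clone 1 and 4 higher and 3 lower in clone 2, each against wild-type. Over all genes 30.8% were called higher and 30.7% lower in clone 1, and 31.5% and 30.6% in clone 2, so these counts are near the background. PCDH10 averaged 256 ± 7.75 CPM in clone 1 and 122 ± 7.44 CPM in wild-type (1.07 ± 0.04, adjusted p = 5.63e-25). PCDH12, a vascular endothelial protocadherin, averaged 5.14 ± 0.498 CPM in clone 1 and 1.69 ± 0.276 CPM in wild-type (1.63 ± 0.16, adjusted p = 5.48e-12). PCDH12 starts 0.794 Mb from the centre of the 3 clusters, within the neighbourhood where most genes were called higher in clone 1. Positions of the other genes of this list, PCDH1 among them, are not given here, and some may lie in the same neighbourhood. PCDH1 had 55 reads in clone 1 and 3 in wild-type, a depth-adjusted ratio of 18.7 with an exact 95% interval of 6.08 to 93.6. With 9 reads in clone 2 and 7 in the rescue line, it could not have passed the filter without clone 1. Its rise and its place in the counts for clone 1 are therefore no test. PCDH9 moved the other way, at 1.78 ± 0.206 CPM in clone 1 and 5.46 ± 0.184 CPM in wild-type (-1.62 ± 0.15, adjusted p = 1.16e-12). In clone 2 the largest change was in PCDH15, at 0.833 ± 0.296 CPM and in wild-type 4.41 ± 0.553 CPM (-2.46 ± 0.21, adjusted p = 2.26e-13).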

How the data were processed

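Polyadenylated RNA of TC71 cells was sequenced from stranded mRNA libraries, per the labels' protocols. The deposited table holds raw counts, with a row for each Ensembl gene and a column for each library. FastQC, STAR and the hg38 build are named in the submitters' processing notes, with no versions. The read counter, strand setting, gene models and row filter were not given in the sources used here. Samples were grouped by the labels. Gene symbols were looked up by Ensembl identifier, with coordinates and exon lengths from GENCODE release 29 and promoters from RefSeq on GRCh38.p14. The members and gene lists were chosen with earlier results of these data known.

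Genes were filtered with edgeR's filterByExpr (minimum count 10), scaled by TMM and fitted over all 12 libraries and 4 groups with the quasi-likelihood test (edgeR 4.0.16, R 4.3.3; 8 residual degrees of freedom), with Benjamini-Hochberg adjustment over all 17084 tested genes and a threshold of 0.05. The script was tested on simulated data. CPM is TMM-scaled; levels per kilobase divide by the annotated exon bases not shared with another gene on the same strand, unless all exon is named. Where a group had 1 to 3 reads the ratio has an exact 95% interval for counting error only. Alternatives were DESeq2 size factors, upper-quartile scaling, no filter, 1 CPM in 3 libraries, DESeq2's Wald test (1.42.0), only the groups compared, a replicate block, leaving out each library, a 2-fold requirement and, added later, scaling to flanking genes. Replicates differed by more than counting noise (chi-square per degree of freedom 1.56 to 3.26), so none was counted as a duplicate. Named members were the 4 most abundant of each type and, per comparison, the 4 called members that rose most and the 4 that fell most; others named in counts or beside them were chosen after their values were seen.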

Additional observations from a re-analysis of the deposited data

Results flagged for a closer look

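PCDHA13, the last alternate alpha member, differed between the knockout clones in direction as well as size, with a log2 difference between clone 2 and clone 1 of -3.36 ± 0.33 (SE, adjusted p = 1.09e-11, edgeR). It averaged 0.191 ± 0.0469 CPM in clone 2, 1.95 ± 0.107 CPM in clone 1 and 0.619 ± 0.188 CPM in wild-type (SD, n = 3 each).

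The members' calls between the 2 clones lay mostly in 1 direction. Directly compared, 17 members were lower and 3 higher in clone 2 than in clone 1, among 38 tested, where 31.9% of all genes were called lower and 30.3% higher. The flanking genes differed in the same comparison, with 22 of 34 lower and 3 higher, and their part in the difference was not tested. With the libraries scaled to the flanking genes, 11 members were lower and 8 higher in clone 2 than in clone 1, with a median log2 fold change of -0.17. Of the 17 lower members, 3 passed the filter on low counts only through clone 1. The whole gamma cluster summed to 117 ± 1.68 CPM in clone 2 and 116 ± 2.48 CPM in clone 1 (SD, n = 3 each).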

How the results depend on the processing

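Of 72 log2 fold changes of named members, none reversed with another normalization, filter, tool, set of samples, block or left-out library, and 2 reversed under scaling to the flanking genes, where the log2 fold change of PCDHGB2, clone 1 against wild-type, was -0.0715 and the log2 fold change of PCDHAC1, clone 2 against wild-type, was -0.0721. DESeq2 size factors lost 0 of the 72 calls, upper-quartile scaling 3, no filter 4, DESeq2's Wald test 17 and scaling to the flanking genes 26. Counts of members called moved by over 1.5 times as follows, and the cause was not tested beyond what each setting does by construction. With a filter of 1 CPM in 3 libraries, which tests fewer members, 13 were higher in clone 1, 9 higher in clone 2 and 3 higher in the rescue line, each against wild-type, and 11 lower in clone 2 than in clone 1. With a 2-fold requirement, 12 were higher in clone 1 against wild-type, 5 higher and 1 lower in clone 2 against wild-type, 0 higher and 3 lower in the rescue line against clone 2, 2 higher and 4 lower in the rescue line against wild-type, and 1 higher and 5 lower in clone 2 against clone 1. DESeq2's Wald test gave 8 higher in clone 2 against wild-type, and 0 higher and 4 lower in the rescue line against clone 2. Upper-quartile scaling and the fit of only the groups compared each gave 1 higher in the rescue line against clone 2. Scaling to the flanking genes gave 9 higher and 6 lower in clone 1 against wild-type, 4 and 9 in clone 2 against wild-type, 4 higher in the rescue line against clone 2, 2 and 12 in the rescue line against wild-type, and 8 and 11 in clone 2 against clone 1. Leaving out 1 library at a time gave, for members higher and then lower, 18 to 20 and 0 in clone 1 against wild-type, 8 to 14 and 2 to 3 in clone 2 against wild-type, 1 to 2 and 5 to 10 in the rescue line against clone 2, 5 to 7 and 6 to 7 in the rescue line against wild-type, and 2 to 4 and 14 to 18 in clone 2 against clone 1.

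The labels name no shared batch or day, and same-numbered libraries did not deviate together over all tested genes (correlations of -0.04 to 0.05), so the replicate numbers were not taken as pairs; over the 9543 genes at 10 CPM or more, each same-numbered pair of clone 2 and clone 1 correlated at 0.13 to 0.20, a hint from the data and not the design. With the replicate block, members called higher and lower were 20 and 0 in clone 1 against wild-type, 15 and 2 in clone 2 against wild-type, 2 and 9 in the rescue line against clone 2, 6 and 7 in the rescue line against wild-type, and 3 and 18 in clone 2 against clone 1. Depth limits the low members: 9 members had too few reads to be tested.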
